A study of Mus musculus with 52 samples.

Results

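The genes of the dioxin receptor and of the cytochrome P450 family 1 were followed in mouse liver after single doses of 8 chemicals. Cyp1a1, Cyp1a2, Cyp1b1, Ahr, Arnt and Tiparp (6 genes) were chosen by name. All 12 probe sets whose only gene symbol in the array annotation was one of these were used, of 22690 probe sets for 12394 genes with a single symbol, and all 12 passed the filter on low signals. Livers came from male B6C3F1 mice, 9 weeks old and given 1 intraperitoneal dose, and each of 52 Affymetrix arrays held RNA pooled from 5 mice. The aromatic ligands were AAT (o-aminoazotoluene, at 300 mg/kg), DMBA (7,12-dimethylbenzanthracene, at 20 mg/kg) and DBP (dibenzo[a,l]pyrene, at 6 mg/kg), against 1 olive oil control at each time. The other 5 chemicals were ENU (ethylnitrosourea, at 150 mg/kg), DMN (dimethylnitrosamine, at 5 mg/kg) and DPN (dipropylnitrosamine, at 250 mg/kg), each with its own control, and EtOH (ethanol, at 1000 mg/kg) and PB (phenobarbital, at 30 mg/kg), which shared a control. The controls of these 5 chemicals, 4 at each time, are called saline controls below. Livers were taken at 4 h, 20 h, 14 days and 28 days, with 1 array per chemical and time, so a single ratio has no replicate. Doses differed between the chemicals, so their values are given side by side. No test was made between single compounds, and the aromatic ligands were tested against the others only as a class, at unequal doses.

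Ahr encodes a receptor that binds flat aromatic molecules such as dioxin and polycyclic hydrocarbons. After binding it enters the nucleus, pairs with the protein of Arnt and binds DNA elements that hold the core GCGTG. The Cyp1 enzymes oxidise many of the same ligands, and Cyp1a1 is the classic target gene, low in untreated liver and strongly inducible. Cyp1a2 is expressed in untreated liver, mainly in hepatocytes near the central vein, while Cyp1b1 is chiefly an enzyme of tissues other than hepatocytes. Tiparp encodes a mono-ADP-ribosyltransferase that is induced by the receptor and represses it in turn.

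The stretches of 250 bases before the start sites are shown for the genes that the receptor is known to induce, since it binds that core. They are RefSeq sequences of build GRCm38.p6 and run 5' to 3' on the strand of the gene. Matches to GCGTG, or to CACGC, the same core on the other strand, are in capitals.
Cyp1a1 (chr9:57697363-57697612, plus strand): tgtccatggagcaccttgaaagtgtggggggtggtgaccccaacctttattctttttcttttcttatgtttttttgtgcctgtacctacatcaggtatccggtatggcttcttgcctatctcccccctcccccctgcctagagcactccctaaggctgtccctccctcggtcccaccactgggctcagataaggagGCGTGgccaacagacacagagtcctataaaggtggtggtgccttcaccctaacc
Cyp1a2 (chr9:57683656-57683905, minus strand): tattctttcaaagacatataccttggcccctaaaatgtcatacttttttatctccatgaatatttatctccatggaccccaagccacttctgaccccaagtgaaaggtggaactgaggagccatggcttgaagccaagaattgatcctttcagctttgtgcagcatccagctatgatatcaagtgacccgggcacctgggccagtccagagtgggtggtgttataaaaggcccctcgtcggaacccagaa
Cyp1b1 (chr17:79715062-79715311, minus strand): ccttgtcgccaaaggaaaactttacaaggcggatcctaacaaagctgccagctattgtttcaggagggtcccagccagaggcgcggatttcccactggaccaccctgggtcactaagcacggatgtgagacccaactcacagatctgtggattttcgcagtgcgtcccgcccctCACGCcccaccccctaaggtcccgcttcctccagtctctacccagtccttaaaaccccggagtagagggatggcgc
Tiparp (chr3:65528197-65528446, plus strand): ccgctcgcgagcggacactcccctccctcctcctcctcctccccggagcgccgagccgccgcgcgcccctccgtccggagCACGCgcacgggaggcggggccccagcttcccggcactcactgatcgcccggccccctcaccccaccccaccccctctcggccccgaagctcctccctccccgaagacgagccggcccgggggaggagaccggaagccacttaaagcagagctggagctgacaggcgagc

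The Cyp1a1 stretch held 1 match, 54 bases before its start site, the Cyp1b1 stretch 1 match at 76 bases, and the Tiparp stretch 1 match at 170 bases. The Cyp1a2 stretch held 0. Of all 32851 stretches of the same length in the table, 28.2% held the core on either strand, so a match is common, and the elements of mouse Cyp1a1 best known from earlier work lie further upstream than this window. Cyp1a1 and Cyp1a2 are neighbours on chromosome 9 that are transcribed away from each other, with start sites 13958 bases apart. The stretch of Arnt held 1 match at 29 bases, and Ahr was not in the table.

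The array medians as deposited ran from 17.9 to 205, and all arrays were scaled to a common median. The 6 hepatocyte markers were above the floor for low signals on all 52 arrays, with a summed signal of 47358 to 77431 in aromatic arrays, 52258 to 99818 in arrays of the other chemicals, 51851 to 56411 in olive oil and 56244 to 80896 in saline controls. On the EtOH array of 20 h the log2 ratio of 3' to 5' control signal was 3.13 for Gapdh and 3.79 for actin, whereas the other 51 arrays had -0.51 to 0.34 and 0.15 to 1.28. Cyp2b10, which phenobarbital induces, was at a log2 signal of 8.25 on the PB array of 20 h and at 11.48 in the control that PB and EtOH share, against the direction of their labels. The class differences of 20 h are therefore also given without this set. A high Cyp2b10 signal was not particular to phenobarbital. AAT had 11.65 at 4 h and 11.99 at 20 h, against 8.07 and 6.19 in olive oil, and DPN had 11.62 at 4 h.

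On the scaled log2 scale, on which low signals were raised to a floor of 5.02, AAT gave a Cyp1a1 signal of 11.59 at 4 h and 12.36 at 20 h. DMBA gave 7.66 and 8.54, and DBP gave 6.16 and 6.97. The olive oil control had 7.19 at 4 h and 6.77 at 20 h. The AAT arrays were thus far above every other array of those times, the DMBA array was above all controls at both times, and the DBP array lay below its olive oil control at 4 h. At 4 h the 4 saline controls had Cyp1a1 signals of 5.46, 6.48, 6.80 and 7.01. At 20 h they had 6.27, 6.54, 6.65 and 6.83. The arrays of the other 5 chemicals lay between 6.27 and 7.12 at 4 h and between 6.41 and 7.24 at 20 h, so their range overlapped that of the controls.

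**Figure D1:**
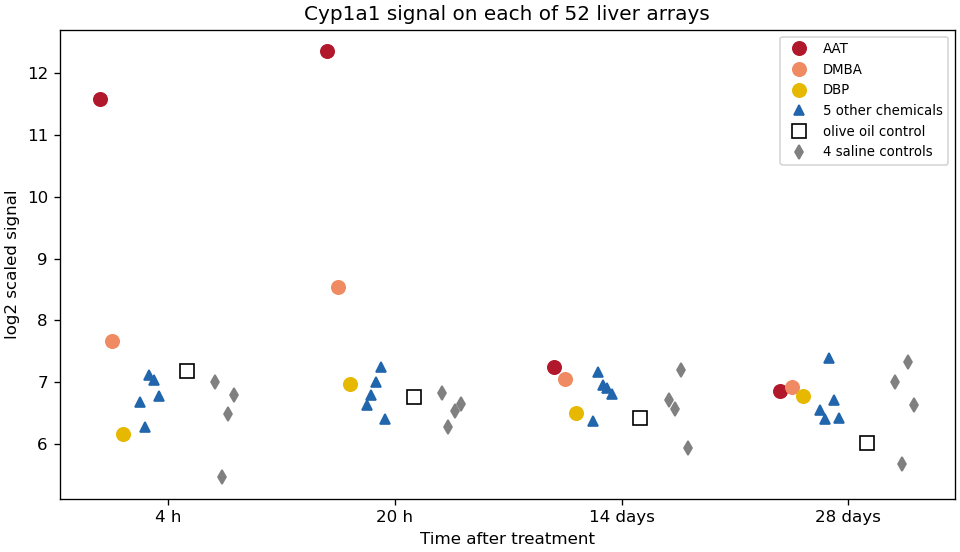
Cyp1a1 signal (log2, scaled to a common array median) on each array against time, with 1 point per array of 5 pooled livers. Circles are AAT, DMBA and DBP, triangles the other 5 chemicals, open squares the olive oil control and diamonds the saline controls. AAT reaches 11.59 at 4 h and 12.36 at 20 h, while no control exceeds 7.33 at any time.

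As a ratio to the olive oil control of the same time, Cyp1a1 with AAT was 4.40 on the log2 scale at 4 h (21.2-fold) and 5.59 at 20 h (48.2-fold). At 14 days it was 0.82 and at 28 days 0.84. The large values were thus those of the first day. The greatest difference between any 2 saline controls was 1.55 at 4 h, 0.56 at 20 h, 1.26 at 14 days and 1.66 at 28 days, so the later AAT ratios lay within the spread of the controls. DMBA had Cyp1a1 log2 ratios of 0.48, 1.77, 0.63 and 0.90 at 4 h, 20 h, 14 days and 28 days. Of these the 20 h value (3.42-fold) lay outside the spread of the saline controls. DBP had -1.03, 0.20, 0.08 and 0.75, all within that spread. At 28 days the 3 aromatic ligands were alike, with log2 signals of 6.86, 6.92 and 6.77, against 6.02 in the olive oil control that all 3 ratios share and 5.67, 6.63, 7.01 and 7.33 in the saline controls. The Cyp1a1 log2 ratios of the other 5 chemicals lay between -0.46 and 0.96 over the 4 times. Of these EtOH at 20 h, with 0.59, lay outside the spread of that time, on the array with high 3' to 5' ratios, whose part in the value was not tested.

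A rise of at least 2-fold that also exceeded every pair of saline controls was used to describe single arrays. With AAT it was met by 1 of the 12 probe sets at 4 h (Cyp1a1), where 0.997% of all 18349 met it, and by 2 at 20 h (Cyp1a1 and Cyp1a2), where 1.85% did. It was met by 0 at 14 days and 0 at 28 days, with 1.3% and 0.48% of all. With DMBA, Cyp1a1 alone met it at 20 h (0.54% of all), and no member did at 4 h, 14 days or 28 days (0.458%, 1.31% and 0.888% of all). With DBP it was met by no member at any time, where 0.599%, 0.583%, 1.61% and 0.649% of all probe sets met it. In the arrays of the other 5 chemicals it was met 3 times in 240 member values, next to 1.41% of all values: Arnt with DPN at 4 h, on its dim probe set, Cyp1b1 with EtOH at 20 h and Ahr with DPN at 14 days. The last 2 were below 2-fold under some alternatives, with lowest log2 ratios of 0.72 and 0.80.

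Cyp1a2 moved less, and also with AAT. Its log2 signal with AAT was 13.04 at 4 h, 13.15 at 20 h, 12.32 at 14 days and 12.17 at 28 days. The olive oil control had 12.19, 11.66, 11.73 and 12.07. The ratios were thus 0.85 (1.80-fold), 1.49 (2.81-fold), 0.59 and 0.11, the first 3 of them outside the spread of the saline controls (0.21, 0.28 and 0.44). At 20 h the olive oil control was the lowest of the 5 controls, since the saline controls had 12.20, 12.26, 12.30 and 12.48. Set against the mean of all 5 controls, the AAT log2 ratio of 20 h was 0.97. On the AAT array of 14 days, all 6 hepatocyte markers (median log2 ratio 0.57) and all 7 pericentral markers (median 0.50) were above the olive oil control as well, and their part in the Cyp1a2 ratio of 0.59 was not tested. DMBA had Cyp1a2 log2 ratios of 0.09, 0.40, -0.12 and -0.14, and DBP had -0.02, 0.12, 0.40 and 0.08. Of these the DMBA value of 20 h lay outside the spread of the saline controls. Its signal of 12.06 was above the low olive oil control but below each saline control of that time.

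**Figure D2:**
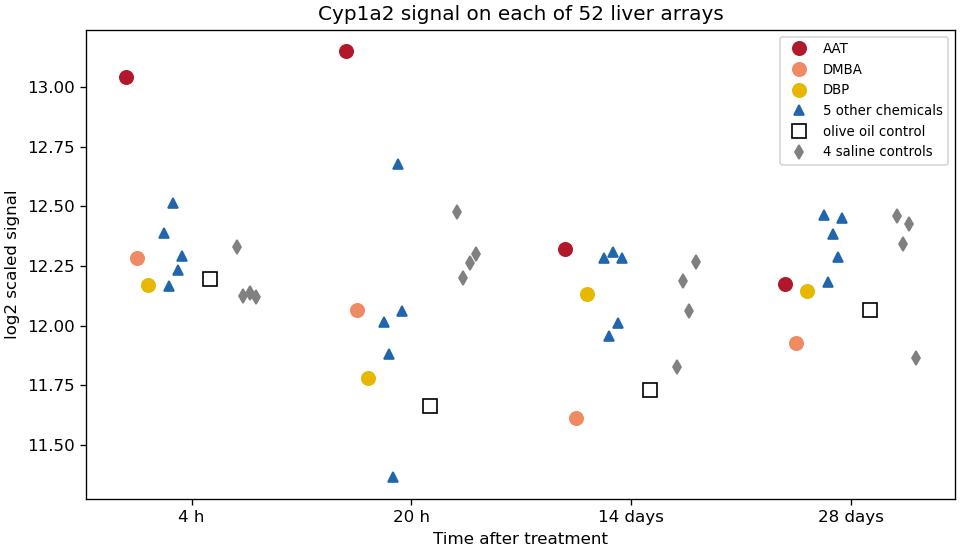
Cyp1a2 signal (log2, scaled to a common array median) on each array against time, with 1 point per array and symbols for AAT, DMBA, DBP, the other 5 chemicals, the olive oil control and the saline controls. AAT stands above all other arrays at 4 h and 20 h with 13.04 and 13.15, and DPN at 20 h is the lowest array with 11.36.

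The lowest Cyp1a2 signal of the series was that of DPN at 20 h, with 11.36, against 12.26 in its own control, a log2 ratio of -0.90. ENU and DMN had -0.46 and -0.32 at that time, and these 3 nitroso compounds lay outside the spread of the saline controls (0.28). The ENU control was the highest saline control of 20 h, with 12.48. Not all of the other 5 chemicals were low at 20 h, since their highest signal was 12.68. Over all chemicals and times, 10 of 32 Cyp1a2 ratios lay outside the spread of the saline controls. Of 7 pericentral hepatocyte markers measured, 1 was above its control with DPN at 20 h, with a median log2 ratio of -0.62. With AAT at 20 h 1 of 7 was above its control too, with a median of -0.27, while Cyp1a2 was higher. The summed signal of the pericentral list ran from 14726 to 22101 over the 12 aromatic arrays, from 15872 to 26021 over the 20 arrays of the other chemicals, from 15691 to 19269 in olive oil and from 17329 to 25265 in saline controls. In pooled bulk liver, fewer cells of a type and less RNA per cell cannot be told apart, and the part of this list in the Cyp1a2 values was not tested.

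Over the 4 times, treated as separate pools, AAT had a fitted Cyp1a1 log2 difference from its own control of 2.91 (SE 0.54), which did not pass the test across all probe sets (limma, adjusted p = 0.0774, 4 of 4 times higher). The SE carries the fall of the ratio with time, since 1 coefficient stands for all times. The fit holds 1 residual spread per probe set, shared by all 8 chemicals. The SE of DMBA and DBP below thus carries that fall with AAT too. For Cyp1a2 the AAT difference was 0.76 (SE 0.19, limma adjusted p = 0.750, 4 of 4 times higher). DMBA had a Cyp1a1 difference of 0.94 (SE 0.54) and DBP one of -0.00 (SE 0.54), both with a limma adjusted p of 1. The limma test called none of the 12 probe sets for any of the 8 chemicals at an adjusted p under 0.05. Among all 18349 probe sets it called 0.00545% with AAT, 0.414% with DPN and 0% with each of DMBA, DBP, ENU, DMN, EtOH and PB. At an unadjusted p under 0.05, 3 of the 12 passed with AAT, 2 with ENU, 1 each with DMBA and DPN and 0 with DBP, DMN, EtOH and PB. Of all probe sets, 4.04% did so with AAT, 5.76% with ENU, 4.07% with DMBA and 12.3% with DPN, and 3.16%, 2.95%, 9.35% and 3.11% with DBP, DMN, EtOH and PB. Without 28 days the Cyp1a1 difference with AAT was 3.61 and passed (limma adjusted p = 0.0457). Against the mean of all 5 controls of each time it was 2.94 and passed too (limma adjusted p = 0.000342), and over 13 alternatives the adjusted p ran from 0.000342 to 1.00.

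At each time the 3 aromatic ligands were also set as a class against the other 5 chemicals, each relative to its own control. The Cyp1a1 difference between the classes was 0.99 (SE 1.97) at 4 h, 2.29 (SE 1.95) at 20 h, 0.22 (SE 0.50) at 14 days and 0.78 (SE 0.35) at 28 days. Within the aromatic class AAT and DBP lay far apart on the first day, and the SE includes that distance. Without AAT the 4 h difference was -0.57, and that of 20 h was 0.75. For Cyp1a2 the class differences were 0.15 (SE 0.35), 1.04 (SE 0.62), 0.22 (SE 0.35) and -0.10 (SE 0.23), and for Tiparp 0.32 (SE 0.39), 0.44 (SE 0.22), 0.24 (SE 0.25) and -0.24 (SE 0.15). Without the EtOH and PB set the 20 h differences were 2.26 for Cyp1a1, 1.23 for Cyp1a2 and 0.45 for Tiparp. The limma test called 0 of the 12 probe sets at any time, and 0 had an unadjusted p under 0.05, where 6.59%, 3.25%, 3.86% and 4.09% of all did at 4 h, 20 h, 14 days and 28 days. Of all probe sets it called 0.12% at 4 h, 0.12% at 20 h, 0.0763% at 14 days and 0.0163% at 28 days. Against the shared olive oil control the aromatic class had Cyp1a1 differences of 1.28 (SE 1.70), 2.52 (SE 1.68), 0.51 (SE 0.43) and 0.83 (SE 0.30). Here too 0 of 12 were called (background 0.158%, 0.185%, 0.142% and 0.0763%), and at an unadjusted p under 0.05 there were 0 at 4 h, 1 at 20 h, 0 at 14 days and 1 at 28 days, next to 4.35%, 2.72%, 5.41% and 3.69% of all probe sets. The 1 at 20 h was the dimmest Cyp1b1 probe set (-0.25), at the floor on each aromatic array. That of 28 days was Cyp1a1.

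The class difference of Cyp1a1 at 4 h minus the mean of those of 20 h, 14 days and 28 days was -0.10 (SE 1.68). The largest class difference, 2.29 at 20 h, is among the later ones, so this contrast does not set the first day apart. The limma test of it called 0 of the 12 probe sets (background 0.00545%). At an unadjusted p under 0.05 there were 0, next to 3.53% of all probe sets. The olive oil control itself was compared with the saline controls over the 4 times. Cyp1a1 differed by 0.03 (SE 0.30) and Cyp1a2 by -0.30 (SE 0.11, limma adjusted p = 0.284), and the limma test called 0 of 12 members and 0% of all probe sets, with 1 member and 2159 probe sets at an unadjusted p under 0.05.

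**Figure D3:**
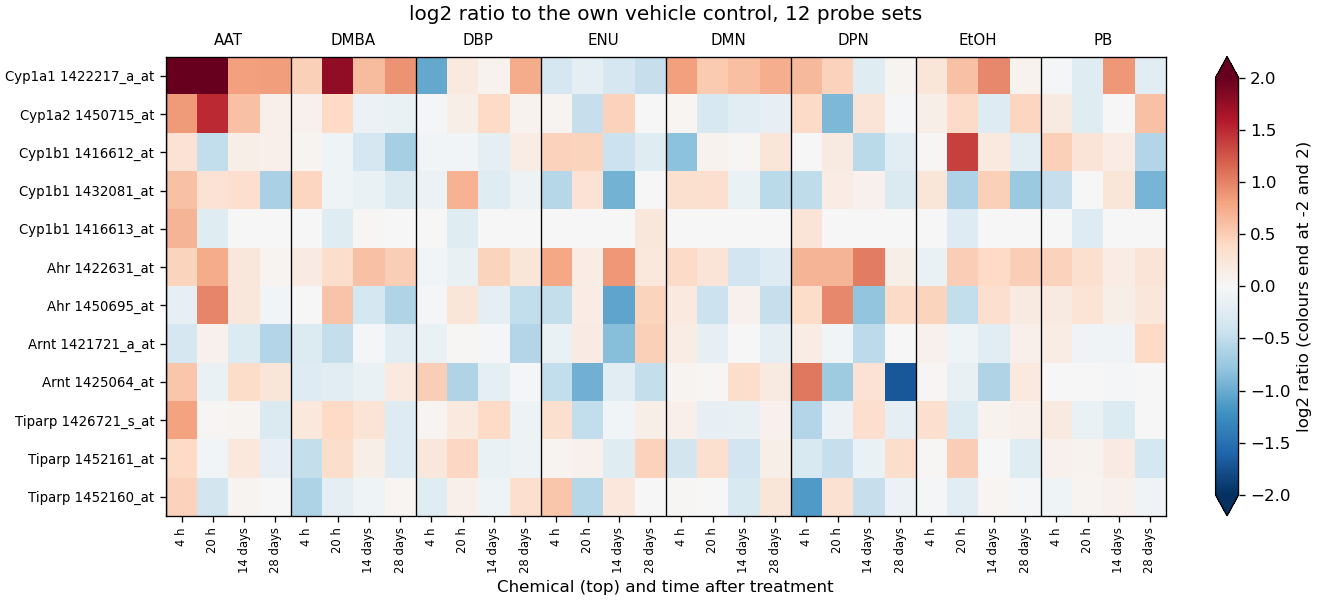
Log2 ratio to the own vehicle control for the 12 probe sets (rows) in 8 chemicals at 4 times (columns), red above and blue below the control, with colours ending at -2 and 2. The Cyp1a1 row is darkest with AAT at 4 h and 20 h (4.40 and 5.59), and the brighter Ahr row is above 0 in 27 of 32 cells.

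Ahr has 2 probe sets, both designed from the same expressed sequence tag. The brighter one lay between 7.61 and 9.29 on the log2 scale over the 52 arrays, and it was above its own control in 27 of 32 ratios, with a median of 0.34. As many ratios above 0 were seen in 0.452% of all probe sets. DPN had Ahr log2 ratios of 0.67 at 4 h, 0.67 at 20 h, 1.03 at 14 days and 0.12 at 28 days. ENU had 0.77, 0.15, 0.87 and 0.21, and AAT had 0.45, 0.74, 0.22 and 0.06. Higher values were thus seen with DPN and ENU and with the aromatic ligand AAT, and the aromatic class minus the other chemicals was -0.28 at 4 h (SE 0.33). DMN, also a nitroso compound, had a fitted difference of -0.00 over the 4 times. At 14 days the log2 signal was 8.75 with DPN, against 7.72 in its own control, and 8.48 with ENU, against 7.61 in its own control. Both controls were the lowest of the 5 of that time, the others having 7.93, 8.23 and 8.29.

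Over the 4 times the Ahr difference was 0.62 (SE 0.17, limma adjusted p = 0.0953, 4 of 4 times higher) with DPN, 0.50 (SE 0.17) with ENU, 0.40 (SE 0.17) with DMBA and 0.37 (SE 0.17) with AAT. It was 0.32 with EtOH, 0.30 with PB, 0.12 with DBP and -0.00 with DMN, and none of the 8 passed the test. A comparison of all treated arrays with their own controls was added after these values were seen. It gave an Ahr difference of 0.34 (SE 0.07, limma adjusted p = 0.0317), which called 1 of 12 members next to 0.463% of all probe sets. The call held under 9 of 19 alternatives, and was lost, for one, with quantile normalization (limma adjusted p = 0.0647), without DPN (0.321) and without 20 h (0.108). The dimmer Ahr probe set had 0.01 (SE 0.10) in the same comparison. Its ratios ran from -1.06 to 0.98, and had the same sign as those of the brighter one in 18 of 32 cases.

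**Figure D4:**
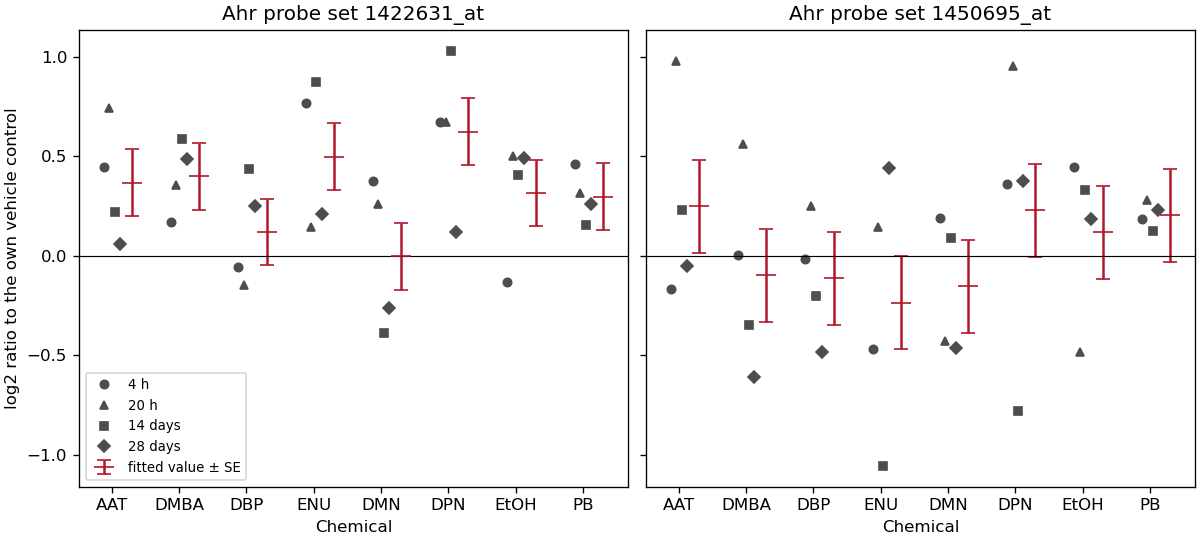
Log2 ratio of Ahr to the own vehicle control for 8 chemicals, on the brighter (left) and the dimmer (right) probe set. Dark symbols are single times, and the red dash with its bar is the limma difference over 4 times with its SE. On the left the fitted values run from -0.00 with DMN to 0.62 with DPN, while the right panel has values on both sides of 0 for most chemicals.

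Arnt, the partner of the receptor, had log2 signals between 6.02 and 6.93 on its brighter probe set, the narrowest range of the brighter probe sets of the 6 genes. Its 32 ratios ran from -0.85 to 0.47, with 22 below 0 and a median of -0.07. With AAT they were -0.33, 0.08, -0.28 and -0.58 at the 4 times. Over 4 times the AAT difference was -0.28 (SE 0.16, limma adjusted p = 1).

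Tiparp on its brightest probe set had a log2 signal of 8.76 with AAT at 4 h, against 7.95 in the olive oil control. That array was the highest of the 52, and the ratio of 0.81 lay within the spread of the saline controls of 4 h (1.12), where the DPN control alone had 8.50 and the others 7.39, 7.41 and 7.70. At the 3 later times Tiparp with AAT had ratios of 0.02, 0.06 and -0.29. DMBA had 0.21, 0.39, 0.27 and -0.26, and DBP 0.05, 0.19, 0.39 and -0.11. The other Tiparp probe sets had ratios of 0.39 and 0.46 with AAT at 4 h, both within the saline pairs.

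Cyp1b1 on its brightest probe set had log2 signals between 5.41 and 6.92, close to the floor of 5.02. With AAT its ratios were 0.29, -0.50, 0.12 and 0.10, with DMBA 0.06, -0.09, -0.33 and -0.66, and with DBP -0.06, -0.05, -0.19 and 0.14. The highest Cyp1b1 ratio was that of EtOH at 20 h, with a log2 signal of 6.92, against 5.56 in its own control, a ratio of 1.36. That EtOH array and its control are the arrays that stood apart, and their part in the Cyp1b1 ratio was not tested. Another Cyp1b1 probe set had -0.61 in the same pair of arrays, and the dimmest was at the floor on 45 of 52 arrays.

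Cyp1a1 and Cyp1a2 had a Pearson correlation of 0.59 over the 32 ratios, and of -0.01 without AAT at 4 h and 20 h, so that the likeness of these neighbours rested on 2 arrays. Ratios of a chemical set share their controls, so these values are a description. The 5 genes most like Cyp1a1, of 14554 probe sets, were Srxn1 (0.63), which repairs oxidised peroxiredoxins, Nqo1 (0.61), a quinone reductase, P2rx7 (0.59), Zwint (0.59) and Ksr1 (0.57). Without those AAT arrays Srxn1 had -0.19, Nqo1 0.27, P2rx7 0.41, Zwint 0.18 and Ksr1 0.09. The 5 most like Cyp1a2 were Selenbp1 (0.77), Psmd14 (0.73), Dnaja1 (0.70), Cyp2c50 (0.70) and Cyp2c37 (0.66), and with those arrays left out they had 0.66, 0.60, 0.67, 0.72 and 0.69.

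Of 19 further symbols of known receptor targets, 11 were measured. With AAT all 11 had a fitted difference over 4 times above 0, with a median of 0.46 next to 0.00 over all probe sets, and the limma test called 0 of them higher and 0 lower. AAT was not alone in this, since 8 of 11 were above 0 with DPN (median 0.49) and 10 of 11 with DMN (median 0.26). Slc7a5 had a ratio of 0 with DPN at all 4 times. With AAT it was above 0 at 14 days only (0.66), and Pmm1 at 4 h and 20 h only. Over all arrays, Pmm1 was at the floor for low signals on 43, Slc7a5 on 42, Fmo2 on 19 and Scin on 17. The other measured members of this list were above the floor on every array. The count of 11 with AAT thus rests partly on probe sets that were often at the floor. At 20 h with AAT 9 of 11 ratios were above 0, with a median of 0.89, led by Nqo1 (2.56) and Gsta2, a glutathione transferase (2.07). With DMBA at 20 h the median was 0.21 and with DBP 0.00, and DPN and DMN, with 8 of 11 above 0 each, had medians of 0.55 and 0.53. With DPN, Nfe2l2, the regulator of the oxidant response, was called higher (0.86, limma adjusted p = 0.0400), with ratios of 0.79, 0.83, 1.27 and 0.55. With AAT Nfe2l2 had 0.82, 1.61, 0.60 and 0.14. For the aromatic class against the other chemicals at 4 h the list had 5 members higher and 6 lower, with a median of -0.04 next to -0.05 over all, and 0 called in either direction. The members farthest from 0 were Fmo2, a flavin monooxygenase (1.30), Xdh, xanthine dehydrogenase (0.49), and Gsta2 (-0.41). Of 9 symbols of receptor partners and chaperones 4 were measured, of which 1 was higher and 3 lower in that comparison, with 0 called. Of these Hsp90aa1, a chaperone that holds the unbound receptor, had -0.37.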

How the data were processed

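Liver RNA of 52 pools was measured on Affymetrix arrays, and the deposited values are probe-set intensity on a linear scale. Which software and scaling were used: not given in the sources used here. Control probe sets were left out (22626 remained). Arrays were scaled to a common median (the average of the 52 medians), signals below the 30th percentile (32.5) were set to that floor, and log2 was taken. The 18349 probe sets with 4 or more arrays over this floor were tested with limma 3.58.1 (R 4.3.3; lmFit, eBayes with trend), with the control set as a block and Benjamini-Hochberg adjustment over all of them. Class fits had 6 residual degrees of freedom, chemical fits 24 and control fits 15. The brightest probe set stood for a gene. Pools are separate groups of mice, but each array is 1 pool, so p-values measure the spread between chemicals or times, not between mice. Array number limits the precision. The other lists held genes known as receptor partners or targets, and of these the called ones and those farthest from 0 at 4 h are named; genes most like Cyp1a1 and Cyp1a2 were ranked among probe sets over the floor in 26 or more arrays. The members and lists were chosen with earlier results of these data known. On simulated data the class fit of 4 h found 48% of changes of 2 and 4% of changes of 1 on the log2 scale, and the fit of AAT over 4 times 96% and 74%, each of 100 changed probe sets among 18349. The simulated noise was independent, with the spread of the saline controls, and each change was the same on every array concerned. Changes that differ between chemicals or fade with time, as that of Cyp1a1 did, were not simulated, so these shares do not hold for them. Alternatives covered scaling, floor, filter, trend, block, controls and leaving out each chemical or time. Figures used matplotlib 3.10.9 in Python 3.11.15. Promoter sequences are from RefSeq.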

Additional observations from a re-analysis of the deposited data

Results flagged for a closer look

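In 46 groups of 4 saline controls (a probe set at 1 time, with a spread above 0), 6 had a highest or lowest array far from the other 3. In 38 of these groups no control was at the floor for low signals. Of the 6, 4 were among these 38, where chance gives about 1 in 20. Cyp1a2 at 4 h had 12.33 on the log2 scale in the ENU control and 12.12 to 12.14 in the others. Tiparp at 14 days had 7.29 in the DPN control, with 7.56 to 7.58 in the others, and on a second probe set 6.71 in the control of EtOH and PB, with 7.05 to 7.12 in the others. The dimmer Ahr probe set had 5.72 in the DMN control of 28 days, with 5.99 to 6.04 in the others. The dimmest Cyp1b1 probe set had 5.29 in the control of EtOH and PB at 20 h and 5.31 in the ENU control at 28 days, while the others were at the floor of 5.02. In these 2 groups the floor itself fixes the gap, so they are not set against chance.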

How the results depend on the processing

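The Cyp1a1 ratios with AAT lay between 4.26 and 5.01 at 4 h and between 5.59 and 5.90 at 20 h under other scalings, floors and controls chosen after seeing the data. The ratio of DMBA at 20 h lay between 1.72 and 1.93, and that of DBP at 4 h between -1.34 and -0.43. Cyp1b1 with EtOH at 20 h lay between 0.72 and 1.36, and Ahr with DPN at 14 days between 0.80 and 1.65. The cause of the changes below was not tested. The Cyp1a1 difference with AAT over 4 times passed the test with the stricter filter (26 of 52 arrays) (2.91, called members 1), without 28 days (3.61, called 1) and against the mean of all 5 controls (2.94, called 1), which also called 1 member with DPN (Ahr, 0.58). With all 5 controls the Cyp1a2 differences of DMBA and DBP were -0.18 and -0.10, the Cyp1a1 difference of DBP 0.024 and the Ahr difference of DMN 0.0048. With DMBA, Cyp1a2 over 4 times was -0.045 with quantile normalization and -0.057 without 20 h. With DBP, Cyp1a1 was 0.0017 with quantile normalization and 0.34 without 4 h. Ahr with DMN was 0.12 without 14 days and 0.082 without 28 days, and Ahr with PB was -0.38 with the values as deposited. The PB array of 28 days had a deposited median of 17.9, against 73.5 in its control. Between the classes, without AAT, Cyp1a1 was -0.57 and Cyp1a2 -0.12 at 4 h. Without the block, Cyp1a2 was -0.15 and Tiparp -0.11 at 14 days. At 28 days Cyp1a2 was 0.050 with the values as deposited and 0.078 without the set of EtOH and PB.

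The Ahr difference over all 8 chemicals stayed above 0 but lost its call with quantile normalization (0.28), the values as deposited (0.24), no filter (0.34), without DMBA (0.33), ENU (0.30) or DPN (0.28), and without 4 h (0.32), 20 h (0.33), 14 days (0.31) or 28 days (0.40). Its adjusted p ran from 0.0224 to 1.00 over 19 alternatives. No member was called between the classes under any of 18 alternatives, while the count of all probe sets called ran from 1 to 65 at 4 h, 0 to 85 at 20 h, 0 to 134 at 14 days and 1 to 97 at 28 days. No paired analysis was possible by replicate number because no replicate numbers are shared between groups in the labels. Each treated array was instead tied to its own control of the same time, as a fixed block in each comparison that holds treated arrays.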
